A study of Triticum aestivum with 45 samples.

Results

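The genes described here lie at the high end of the identifier order on the group 6 chromosomes of bread wheat, 6A, 6B and 6D. They were taken by identifier number alone: TraesCS6A01G370000 and above, TraesCS6B01G430000 and above, and TraesCS6D01G360000 and above. This gave 1440 genes, 518 on 6A, 440 on 6B and 482 on 6D, of 110790 in the table. These stretches were singled out because earlier results of the same data showed many genes there that differed between a doubled haploid line, DH1, and its recurrent parent. The stretches were thus selected on the measured level difference between DH1 and Superb, and genotype differences are given here as a description. Calls between genotypes only count genes past a threshold, and no conclusion is drawn from them. The label for these genes places them at the ends of the long arms. Identifier numbers rise along a chromosome, but the positions themselves and the arms were not analysed here.

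Bread wheat carries 3 related genomes, A, B and D, so that most genes occur as homoeologous copies on the chromosomes of a group. A doubled haploid line is fixed for 1 combination of its parents' chromosomes, and in a line backcrossed to a recurrent parent, neighbouring genes from the donor are inherited together as a block. Jasmonate is a wound and defence hormone: its active form is bound by the COI1 receptor, which leads to the breakdown of JAZ repressors and the release of transcription factors such as MYC2.

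RNA was sequenced from spikelets of 3 spring wheats. Superb is a Canadian cultivar, DH1 is the line GS-1-EM0040 with the donor CIMMYT11, and DH2 is the line GS-1-EM0168 with the donor CM82036, and both lines have Superb as the recurrent parent. At anthesis the spikes received a spray of water, methyl jasmonate (MeJA), ethephon, which plants turn into ethylene, or salicylic acid (SA), each hormone at 100 µM, and were taken 8 h later. Untreated spikes were taken at 0 h, and 1 spikelet of a spike was used for RNA. Each of the 15 groups had 3 libraries. Each genotype is represented by 1 cultivar or 1 fixed line, so its libraries repeat the line and not the cross. The labels do not say whether a library came from a separate plant, so p-values measure the spread between libraries only. A spikelet holds several tissues, so fewer cells of a type and less RNA per cell cannot be told apart.

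The libraries held 6446374 to 17940396 counts each (median 11251553). Of the 1440 members, 244 had no count in any library, 446 had counts but did not pass the filter on low counts, and 750 were tested, 295 on 6A, 196 on 6B and 259 on 6D. The tested share of 52.1% compares with 58.0% of all genes. The median level of the tested members was 5.46 CPM (counts per 1000000 counts of the library), close to the 5.57 CPM of all tested genes. No member has a gene name or an annotated function in the sources used here, so members are given by identifier. Homoeologous copies can share reads, and how the counting divided them was not tested.

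Libraries that stood apart come before the results. In Superb ethephon replicate 1 the members expressed only in DH1 summed to 26.5% of their DH1 mean, against 0.174 to 1.36% in the other 14 Superb libraries. The members near 0 in DH1 stood at 65.8% of the Superb mean in the same library. Both sets were picked by the level rule given below, without this library. Low values of the DH1-only members in the other 14 Superb libraries thus follow from that rule. At 26.5%, Superb ethephon replicate 1 went against its label at these genes. It was left out of every comparison, and results with it are given where they change. In DH1 ethephon replicate 1 the members expressed only in DH2 summed to 18.3% of their DH2 mean, against 0 to 1.05% in the other 14 DH1 libraries. This library was kept.

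DH1 differed from Superb at many of these genes. Averaged over the 5 conditions, 294 of the 750 tested members were called at an adjusted p under 0.05 (edgeR quasi-likelihood test, adjusted over all tested genes), 159 higher and 135 lower in DH1. Over all 64232 tested genes 5.88% were called, 2.91% higher and 2.97% lower. Since this contrast chose the members, nothing is read from their share of 39.2%. The median absolute log2 fold change was 0.29 over the members and 0.11 over all tested genes.

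The direction differed by chromosome. On 6A, 150 of 295 tested members were called, 105 higher and 45 lower in DH1. On 6B, 91 of 196 were called, 47 higher and 44 lower. On 6D, 53 of 259 were called, only 7 higher and 46 lower. The sizes differed too, since 74 of the 6A calls and 51 of the 6B calls reached an absolute log2 fold change of 1, but 11 of the 6D calls. On the remainder of the same chromosomes 7.94% of tested genes were called on 6A, 7.39% on 6B and 4.99% on 6D.

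DH2 against Superb gave another picture over the same members. There, 82 of 750 were called, 38 higher and 44 lower, beside 9.88% of all tested genes, 4.15% higher and 5.73% lower. They were 32 on 6A, 12 on 6B and 38 on 6D. At an absolute log2 fold change of 1 or more, 18 members were called for DH2 and 136 for DH1, beside 2.14% and 1.88% of all tested genes. DH1 against DH2 called 381 members, 203 higher and 178 lower in DH1, beside 20.2% of all tested genes, 11.6% higher and 8.64% lower. These 3 comparisons share libraries in pairs, so their counts stand side by side and their overlap is not given as a result.

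**Figure D1:**
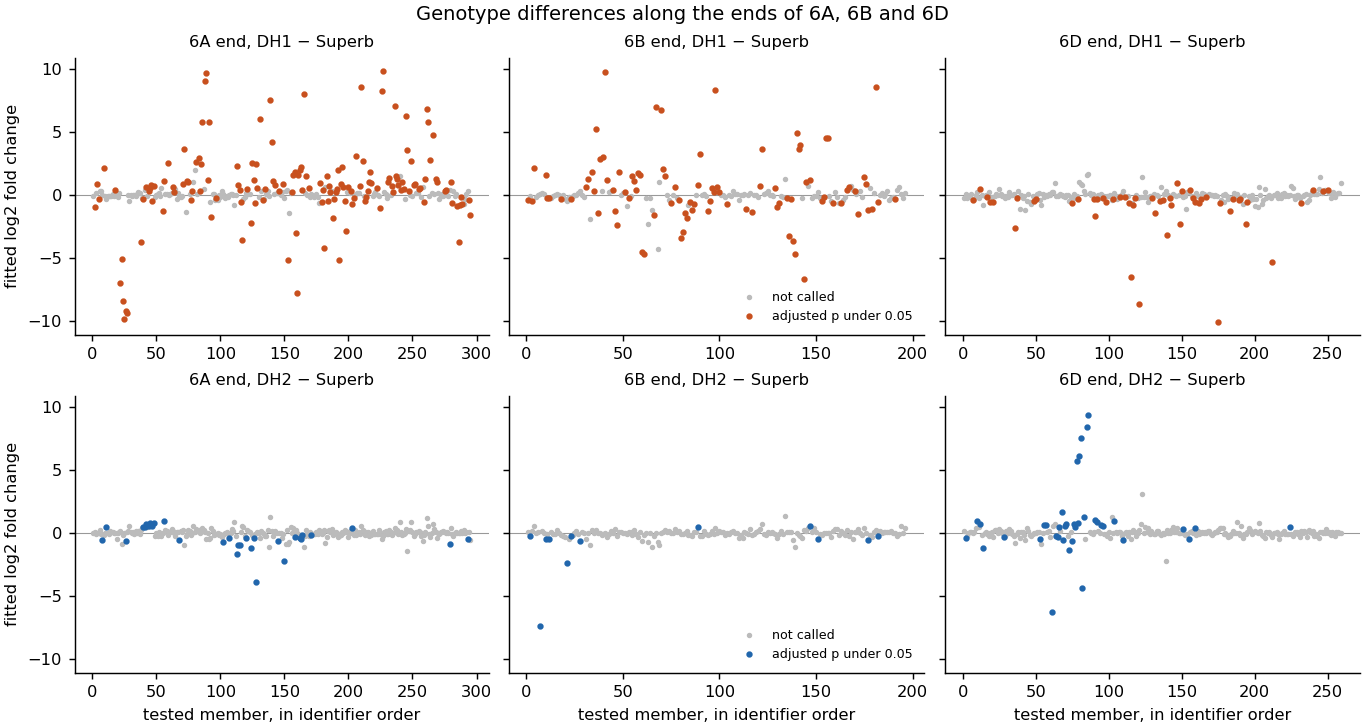
Fitted log2 fold change (y axis) of each tested member in identifier order (x axis) on the ends of 6A, 6B and 6D, for DH1 minus Superb (top) and DH2 minus Superb (bottom). Coloured points passed an adjusted p of 0.05 and grey points did not. DH1 points spread along most of 6A and 6B. Of the DH2 calls with an absolute log2 fold change of at least 1, 11 lie on 6D, 5 on 6A and 2 on 6B, beside 2.14% of all tested genes.

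Along the order, the tested members were cut into bins of 50 neighbours, with the 50 tested genes before each cut point for comparison. On 6A, DH1 against Superb called 10% of the genes before the cut point and then 38%, 44%, 42%, 66%, 64% and 51.1% of the successive bins. The highest shares lay from TraesCS6A01G395500 to TraesCS6A01G412900. The bins differed in direction: the first had 8 higher and 11 lower, the second 18 higher and 4 lower, and the fifth 27 higher and 5 lower. The last bin, which reaches the end of the order, had 14 higher and 9 lower.

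On 6B the share was 16% before the cut point and 44%, 66%, 38% and 37.0% in the bins after it. The second 6B bin, from TraesCS6B01G439600 to TraesCS6B01G451100, had the largest median absolute log2 fold change of the bins on the 3 ends, 0.82. Its calls were 18 higher and 15 lower. On 6D the share was 4% before the cut point, then 18%, 14%, 36%, 28% and 8.47%. In bins 3 and 4 of 6D, 29 of 32 calls were lower in DH1. The last 6D bin was thus near the 5.88% of all tested genes, unlike the last bins of 6A and 6B.

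DH2 against Superb was read in the same bins, beside 9.88% of all tested genes. On 6D it called 54% of the second bin, from TraesCS6D01G369200 to TraesCS6D01G378900, 19 higher and 8 lower in DH2, but 10% of the bin before it and 4% of the bin after it. On 6A it called 22% of the first bin, 9 of 11 higher, and 22% of bin 3, all 11 lower. The first 6A bin was not particular to DH2. Some of its members called higher in DH2 were also called higher in DH1, among them TraesCS6A01G376800 and TraesCS6A01G377200. Another, TraesCS6A01G377100, was called lower in DH1. Both comparisons use the same Superb libraries, so this is a description only. On 6B it called 14% of the first bin, all 7 lower, and 2% of each of bins 2 and 3. In the last bins of 6A and 6D, DH2 against Superb called 4.44% and 1.69%.

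Runs of neighbouring calls are a description only. They lengthen as the share called rises, which was 50.8% on the 6A end for DH1 against Superb. Runs were not measured in other genes, so no grouping of calls is read from them. The longest run of neighbouring tested members called for DH1 against Superb was 11 genes on 6A, from TraesCS6A01G402100 to TraesCS6A01G404500, 6 higher and 5 lower. On 6B the longest was 8 genes, 3 higher and 5 lower, and on 6D 3 genes, all lower. For DH2 against Superb the longest run was 9 genes on 6D, from TraesCS6D01G373000 to TraesCS6D01G376500, 7 higher and 2 lower. On 6A it was 5 genes, all higher in DH2.

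**Figure D2:**
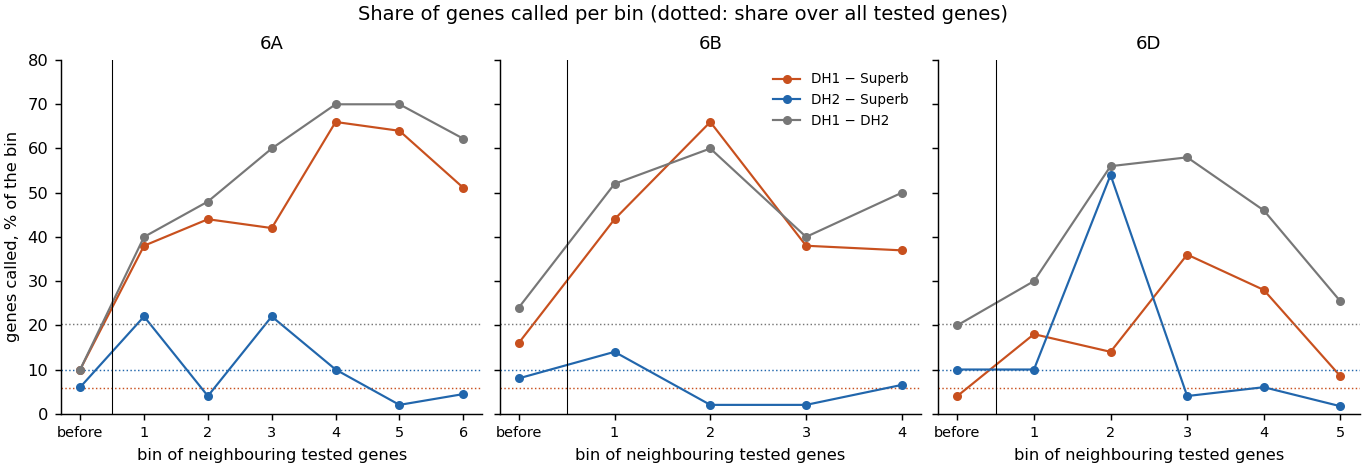
Share of genes called (y axis, percent) in bins of 50 neighbouring tested genes in identifier order (x axis) on 6A, 6B and 6D, for the 3 genotype comparisons. The last bin of a chromosome holds 45, 46 or 59 genes, "before" is the 50 genes just outside the cut point, and dotted lines give the share over all tested genes: DH1 minus Superb peaks at 66% on 6A and 6B, and DH2 minus Superb at 54% on 6D.

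Called genes on either side of the cut points give the values at the threshold. The last called gene before the 6A cut point, TraesCS6A01G367300, had 17.5 ± 2.46 CPM in Superb (SD, n = 14) and 13.1 ± 2.23 CPM in DH1 (SD, n = 15). The first called member after it, TraesCS6A01G370500, had 9.07 ± 6.66 CPM and 5.11 ± 4.68 CPM. An SD with n = 14 or n = 15, here and below, takes in all 5 conditions. TraesCS6A01G370500 rose after MeJA in each genotype, as given below, so its SDs include that response. On 6B the gene just outside, TraesCS6B01G429500, and the one just inside, TraesCS6B01G430000, had log2 fold changes of -0.98 and -0.46. On 6D they were TraesCS6D01G354800 and TraesCS6D01G360800, at 0.53 and -0.40.

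The same contrast was also made within conditions. The members were selected on it, so these counts are a description as well. In untreated libraries alone 129 members were called, beside 1.32% of all tested genes, and in water libraries alone 130, beside 1.4%. These 2 sets of libraries have none in common. The number called in both was 100, which is 77.5% of the untreated calls and 76.9% of the water calls, and all 100 had the same direction. Over all tested genes 845 were called in untreated libraries, 902 in water libraries and 587, or 0.914%, in both. Most calls were thus shared over all tested genes too, and the overlap is not read as a trait of these ends. DH2 against Superb called 24 members in untreated libraries, beside 1.3%, and 17 in water libraries, beside 1.64%. In both, 13 were called, in the same direction, beside 0.859% of all tested genes. Counted over all tested genes, DH2 against Superb gave 838 in untreated libraries, 1051 in water libraries and 552 in both.

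The share of the library counts held by each end was taken per genotype, over all 5 conditions together. The 6A end held 0.476 ± 0.0531% of counts in Superb (SD, n = 14), 0.505 ± 0.0285% in DH1 (SD, n = 15) and 0.494 ± 0.0490% in DH2 (SD, n = 15). For the 6B end the shares were 0.309 ± 0.0422%, 0.298 ± 0.0359% and 0.281 ± 0.0304% in the same order. For the 6D end they were 0.384 ± 0.0304%, 0.360 ± 0.0286% and 0.429 ± 0.0395%. The 6D median was 0.400% in Superb, 0.378% in DH1 and 0.454% in DH2. The ranges of the genotypes overlapped at each end, but each range mixes the conditions. In Superb, all members together held from 0.967% of counts in MeJA replicate 2 to 1.33% in water replicate 1. The overlap therefore does not show that the genotypes were alike, and their difference was not tested.

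A level rule picked out members present in some genotypes only: at least 1 CPM where expressed, and at most 5% of that where near 0. By this rule 12 members were near 0 in DH1 and expressed in Superb and DH2, 7 on 6A, 2 on 6B and 3 on 6D, beside 0.0887% of all tested genes. A further 20 were expressed in DH1 and near 0 in Superb and DH2, 12 on 6A, 8 on 6B and 0 on 6D, beside 0.128% of all tested genes. For DH2 the rule gave 1 member near 0, on 6B, beside 0.118%, and 4 expressed in DH2 only, all on 6D, beside 0.146%. No member was near 0 only in Superb or expressed only in Superb, beside 0.00934% and 0% of all tested genes. The rule and the choice of named genes both pick on level differences between genotypes. Statements below that genotypes do not overlap at such genes are therefore a description only.

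**Figure D3:**
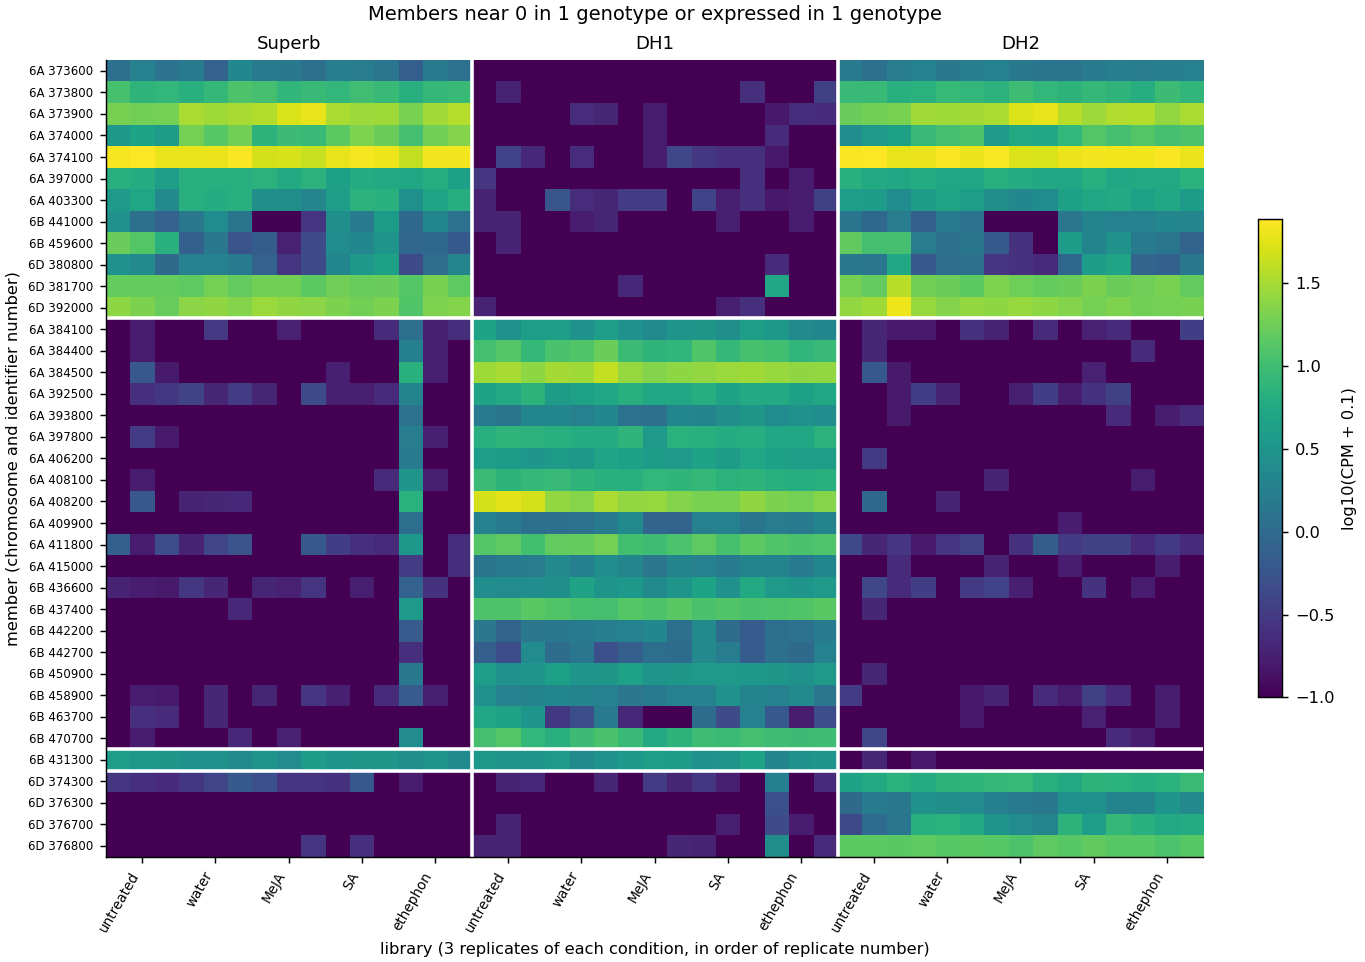
Level of each of the 37 members of the level rule (rows, by chromosome and identifier number) in the 45 libraries (columns, by genotype and condition), as log10(CPM + 0.1). White lines part the genotypes and the 4 sets: 12 near 0 in DH1, 20 expressed in DH1 only, 1 near 0 in DH2 and 4 expressed in DH2 only. The light column among the dark Superb columns is ethephon replicate 1.

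On 6A, 4 neighbouring tested members, from TraesCS6A01G373800 to TraesCS6A01G374100, were all near 0 in DH1. TraesCS6A01G374100 ranged over 44.0, 64.0 and 76.9 CPM in Superb (lowest, median and highest of 14 libraries). In DH2 it ranged over 53.2, 67.2 and 76.1 CPM. In DH1 it had 17 counts over 15 libraries, a pooled level of 0.0955 CPM with a 95% Poisson interval of 0.0556 to 0.153. Every Superb and DH2 library lay far above every DH1 library. Intervals here and below cover counting error only.

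TraesCS6A01G373900, its neighbour, ranged over 18.6, 31.5 and 60.2 CPM in Superb and 16.8, 31.5 and 59.4 CPM in DH2. DH1 had 8 counts of it, at 0.0449 CPM (0.0194 to 0.0885). This gene was also MeJA-responsive where it was expressed: it rose by 0.65 ± 0.17 on the log2 scale in Superb (SE, edgeR adjusted p = 0.00533) and by 0.68 ± 0.17 in DH2 (adjusted p = 0.0031), and at its level near 0 in DH1 no response could be measured.

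The 6A genes named as higher in DH1 had the opposite pattern. TraesCS6A01G408200 ranged over 19.0, 25.4 and 58.1 CPM in DH1. It had 10 counts over 14 Superb libraries, at 0.0663 CPM (0.0318 to 0.122), and 9 counts over 15 DH2 libraries, at 0.0485 CPM (0.0222 to 0.0921). The tested member next to it, TraesCS6A01G408100, also belonged to the set expressed in DH1 only. TraesCS6A01G384500 ranged over 22.3, 27.9 and 41.9 CPM in DH1, with 10 counts in Superb and 7 in DH2, and its neighbour TraesCS6A01G384400 was in the same set.

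On 6B, TraesCS6B01G437400 varied little between libraries. It ranged over 10.7, 12.0 and 14.0 CPM in DH1, and had 1 count over the Superb libraries and 1 count over the DH2 libraries. TraesCS6B01G470700 ranged over 5.62, 9.51 and 13.0 CPM in DH1, with 3 counts in Superb and 5 in DH2. Neither gene overlapped between DH1 and the other genotypes.

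The 6B members named as lower in DH1 had low levels. TraesCS6B01G456900 ranged over 2.11, 2.73 and 3.67 CPM in Superb, 0.0917, 0.285 and 0.668 CPM in DH1 and 1.84, 3.00 and 3.62 CPM in DH2. Its fitted log2 fold change, DH1 minus Superb, was -3.24 ± 0.15 (SE), and no DH1 library reached the lowest library of the others. TraesCS6B01G459600 was above all a gene of untreated spikelets, at 16.9, 13.0 and 6.68 CPM in the 3 untreated Superb libraries and 15.04, 10.4 and 10.8 CPM in DH2. After water it stood at 0.814 ± 0.458 CPM in Superb and 1.26 ± 0.234 CPM in DH2 (SD, n = 3), a fall that passed the test in both (adjusted p = 2.06e-08 and 3.51e-08). DH1 gave 1 count of it over 15 libraries.

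Both 6D members named as higher in DH1 differed little. TraesCS6D01G361800 had 95.7 ± 12.9 CPM in Superb (SD, n = 14), 127 ± 22.4 CPM in DH1 and 149.9 ± 28.8 CPM in DH2 (SD, n = 15 each). TraesCS6D01G403900 had 77.1 ± 13.8, 103 ± 20.3 and 84.8 ± 15.4 CPM in the same order. Their fitted log2 fold changes, DH1 minus Superb, were 0.41 ± 0.09 and 0.41 ± 0.07 (SE), and the libraries of the genotypes overlapped for both.

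Both 6D members named as lower in DH1 were near absent there, while 3 of the 46 called lower on 6D were near 0 by the level rule. TraesCS6D01G392000 ranged over 16.3, 22.4 and 28.5 CPM in Superb, and DH1 had 3 counts of it over 15 libraries, at 0.0168 CPM (0.00347 to 0.0492). In DH2 it ranged over 18.6, 24.7 and 65.7 CPM. TraesCS6D01G381700 ranged over 14.3, 16.3 and 19.5 CPM in Superb and 14.5, 17.8 and 38.2 CPM in DH2. In DH1 its median was 0 CPM, and its highest library, at 5.31 CPM, was ethephon replicate 1. Without that library the fitted log2 fold change, DH1 minus Superb, moved from -8.70 to -10.22.

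The highest DH2 library of both genes was untreated replicate 3. It held 2.79 times the mean of the other 14 DH2 libraries for TraesCS6D01G392000 and 2.15 times for TraesCS6D01G381700. These values were seen first and then put together, so they are a description only.

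The stretch of 6D where DH2 differed held the 4 members expressed in DH2 only, among them TraesCS6D01G376300 and TraesCS6D01G376700. TraesCS6D01G376800 ranged over 11.8, 13.6 and 15.1 CPM in DH2 and had 3 counts over the Superb libraries. In DH1 it had 48 counts, with a highest library of 2.54 CPM, again ethephon replicate 1. TraesCS6D01G374300 ranged over 4.46, 6.84 and 9.18 CPM in DH2 and reached at most 0.556 CPM in Superb, a fitted log2 fold change of 5.67 ± 0.28 (SE). DH1 ethephon replicate 1 held 1.65 CPM of it. The DH2 libraries lay above every library of the other genotypes for both genes.

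The members named as lower in DH2 were TraesCS6B01G431300 and TraesCS6D01G376400. The first ranged over 2.22, 3.10 and 3.95 CPM in Superb and 1.89, 3.16 and 4.42 CPM in DH1, and DH2 had 2 counts of it over 15 libraries. The second was at 2.20 ± 0.673 CPM in Superb (SD, n = 14) and 3.59 ± 1.06 CPM in DH1 (SD, n = 15). In DH2 its median was 0 CPM, while untreated replicate 3 held 14.2 CPM, above every Superb and DH1 library. Its fitted log2 fold change, DH2 minus Superb, was -4.38 ± 0.73 (SE), and -5.41 without DH2 water replicate 1.

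The partial signal in DH1 ethephon replicate 1 was present at some members and not at others. Of 13 members at least 8 times higher in DH2 than in DH1, with at least 3 CPM in DH2, 4 stood above 5% of the way from the other DH1 libraries to DH2 in that library. All 4 were on 6D, at 7.67 to 27.8% of the way. The other 9, on 6A, on 6B and at TraesCS6D01G392000, stood between -2.34 and 1.38%. Over all tested genes 44 of 131 stood above 5%, or 33.6%, near the 30.8% of the members. A link to the place in the order was not tested. The part of this library in the DH1 results was checked by leaving it out, as given for TraesCS6D01G381700.

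MeJA changed many of these genes in each genotype. Against water at 8 h, 132 of 750 tested members were called in Superb, 167 in DH1 and 138 in DH2 (edgeR, adjusted p under 0.05). Without DH1 MeJA replicate 2 the count in DH1 was 108. The shares over all tested genes were 21.5%, 27.2% and 23.1%, and over the members 17.6%, 22.3% and 18.4%. The difference between these shares was not tested. Superb had 47 rises and 85 falls, beside 12.2% and 9.3% of all tested genes. DH1 had 78 rises and 89 falls, beside 16.1% and 11.1%, and DH2 had 62 rises and 76 falls, beside 14.1% and 9.03%. Rises made up 35.6%, 46.7% and 44.9% of the members' calls but 56.8%, 59.2% and 61.0% of the calls over all tested genes.

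The genotypes share no library in this comparison, so their calls can be set together. In all 3 genotypes 36 members rose, beside 9.4% of all tested genes, and 31 fell, beside 4.83%. These are 4.8% and 4.13% of the tested members. Some response was called in at least 1 genotype for 245 members, or 32.7%, beside 35.9% of all tested genes. In opposite directions 2 were called, beside 0.028% of all tested genes. They were TraesCS6A01G382500 and TraesCS6A01G392700, which are described below. Where members rose, the median log2 fold change was 1.01 in Superb, 1.13 in DH1 and 0.997 in DH2, and where they fell it was -0.90, -0.76 and -0.92. Summed over the 3 genotypes, MeJA calls per bin ran from 12 in bin 3 of 6D to 46 in the 50 genes before the 6D cut point. Of the 50 genes in each, 2, 6 and 4 were called in Superb, DH1 and DH2 in the first, and 14, 14 and 18 in the second. Over all tested genes the shares were 21.5%, 27.2% and 23.1%. These 2 bins are the lowest and highest, picked after the counts were seen, and their difference was not tested.

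**Figure D4:**
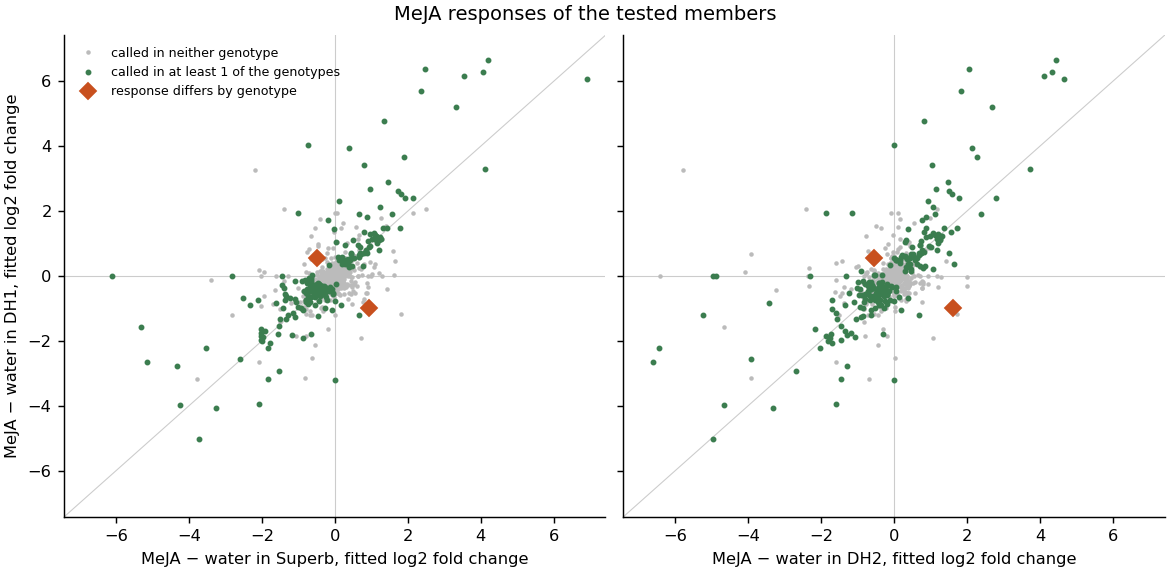
Fitted log2 fold change after MeJA against water in DH1 (y axis) against that in Superb (left x axis) and in DH2 (right x axis), 1 point per tested member, with the line of equal response. Green points were called in at least 1 of the 2 genotypes plotted, and the orange diamonds are the 2 members whose response differed by genotype, which lie off the line.

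Among members with a mean log2 CPM of 1 or more that rose in all 3 genotypes, TraesCS6D01G367700 had the largest mean log2 fold change. It went from 0.288, 0.408 and 0.667 CPM in the water libraries of Superb to 5.43, 9.22 and 8.98 CPM after MeJA. In DH1 it went from 0.477, 0.993 and 0.501 to 5.74, 8.68 and 5.89 CPM. In DH2 it went from 0.547, 0.707 and 0.947 to 9.52, 11.4 and 9.15 CPM. The MeJA and water libraries did not overlap in any genotype, and the log2 fold changes were 4.10 ± 0.34, 3.28 ± 0.30 and 3.74 ± 0.27 (SE, adjusted p = 5.19e-12, 4.48e-11 and 1.46e-13).

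TraesCS6A01G370500 had the next largest under the same limit. After water it had 5.23 ± 0.258, 2.69 ± 0.980 and 6.16 ± 0.684 CPM in Superb, DH1 and DH2 (SD, n = 3), and after MeJA 19.8 ± 7.89, 13.9 ± 2.27 and 21.6 ± 10.1 CPM. It rose in each genotype. The log2 fold changes were 1.91 ± 0.30, 2.39 ± 0.32 and 1.79 ± 0.28 (SE, adjusted p = 6.75e-06, 3.24e-07 and 6.21e-06). Over the conditions its log2 fold change, DH1 minus Superb, was -0.96 ± 0.15 (SE).

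Under the same limit, the members that fell furthest in all 3 genotypes had low levels. TraesCS6D01G392600 stood at 3.64, 2.55 and 2.67 CPM in the water libraries of Superb and at 0.302, 0 and 0.176 CPM after MeJA. In DH1 it went from 1.10 ± 0.663 CPM to 2 counts over 3 libraries, and in DH2 from 1.90 ± 0.4995 CPM to 2 counts over 3 libraries. All 3 falls passed the test (edgeR adjusted p = 2.22e-06, 0.000346 and 6.73e-06), and at such counts the size of the fall is not well measured.

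TraesCS6A01G374400 had 5.50 ± 2.18, 5.18 ± 1.89 and 9.70 ± 4.62 CPM after water in Superb, DH1 and DH2 (SD, n = 3), and it fell to 0.501 ± 0.458, 0.323 ± 0.288 and 0.933 ± 0.384 CPM after MeJA. The log2 fold changes were -3.24 ± 0.98, -4.06 ± 1.05 and -3.30 ± 0.80 (SE, adjusted p = 0.0147, 0.00339 and 0.00218). The call in Superb was lost without water replicate 1 (adjusted p = 0.0563), without MeJA replicate 1 (0.0560) or without MeJA replicate 3 (0.0534).

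Few members were called as responding to MeJA differently by genotype. The test of the difference, with 2 degrees of freedom, called 2 members, beside 0.0265% or 17 of all tested genes, and 38 members had an unadjusted p under 0.05. DESeq2 also called 2. Between pairs of genotypes, DH1 against DH2 called 2 members, beside 0.0187% of all tested genes. DH1 against Superb called 0, beside 0%, with 37 at an unadjusted p under 0.05 and 2 called by DESeq2. DH2 against Superb called 0, beside 0.0156%, with 31 at an unadjusted p under 0.05 and 0 called by DESeq2. Both called members are on 6A.

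TraesCS6A01G382500 rose after MeJA in Superb and DH2 and fell in DH1. In Superb it went from 15.9, 16.6 and 14.9 CPM after water to 33.0, 27.9 and 29.1 CPM after MeJA. In DH2 it went from 9.72, 9.98 and 10.3 to 28.3, 34.6 and 28.2 CPM. In DH1 it went the other way, from 20.4, 21.3 and 16.1 to 8.44, 9.68 and 10.9 CPM. Water and MeJA libraries did not overlap in any genotype.

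Its log2 fold changes were 0.92 ± 0.23 in Superb (SE, adjusted p = 0.00248), -0.996 ± 0.23 in DH1 (adjusted p = 0.0012) and 1.60 ± 0.23 in DH2 (adjusted p = 1.29e-06). The responses differed by genotype at an adjusted p of 0.000139 (edgeR). The response of DH1 minus that of DH2 was -2.60 ± 0.32 (SE, adjusted p = 7.07e-05), and that of DH1 minus Superb was -1.92 ± 0.32 (adjusted p = 0.0654). The water level also moved: it rose against untreated by 1.48 on the log2 scale in DH1 (adjusted p = 9.44e-06) and by 0.64 in Superb (adjusted p = 0.0378), and in DH2 the value was -0.22 (adjusted p = 0.532).

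TraesCS6A01G392700 showed the reverse pattern and smaller changes. In DH1 it rose from 12.2, 12.3 and 10.3 CPM after water to 17.5, 15.4 and 18.4 CPM after MeJA. In Superb it fell from 18.3, 17.1 and 19.8 to 15.3, 11.8 and 11.8 CPM. In DH2 it fell from 18.5, 21.0 and 18.2 to 17.0, 10.1 and 12.6 CPM. Water and MeJA libraries did not overlap in any genotype.

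Its log2 fold changes were 0.55 ± 0.14 in DH1 (SE, adjusted p = 0.0028), -0.50 ± 0.14 in Superb (adjusted p = 0.00885) and -0.54 ± 0.14 in DH2 (adjusted p = 0.00345). The responses differed by genotype at an adjusted p of 0.0170 (edgeR). This call was lost when DH1 water replicate 1, 2 or 3 or DH1 MeJA replicate 1 or 3 was left out, at adjusted p of 0.0561, 0.0660, 0.114, 0.0569 and 0.0824. Between pairs, the response of DH1 minus that of DH2 was 1.09 ± 0.20 (SE, edgeR adjusted p = 0.0231). That of DH1 minus Superb was 1.05 ± 0.20 (adjusted p = 0.119). Averaged over the 5 conditions the gene was lower in DH1 than in Superb, with a log2 fold change of -0.46 ± 0.06 (SE). After MeJA it was the higher in DH1, at 17.1 ± 1.56 CPM against 13.0 ± 2.01 CPM in Superb (SD, n = 3).

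**Figure D5:**
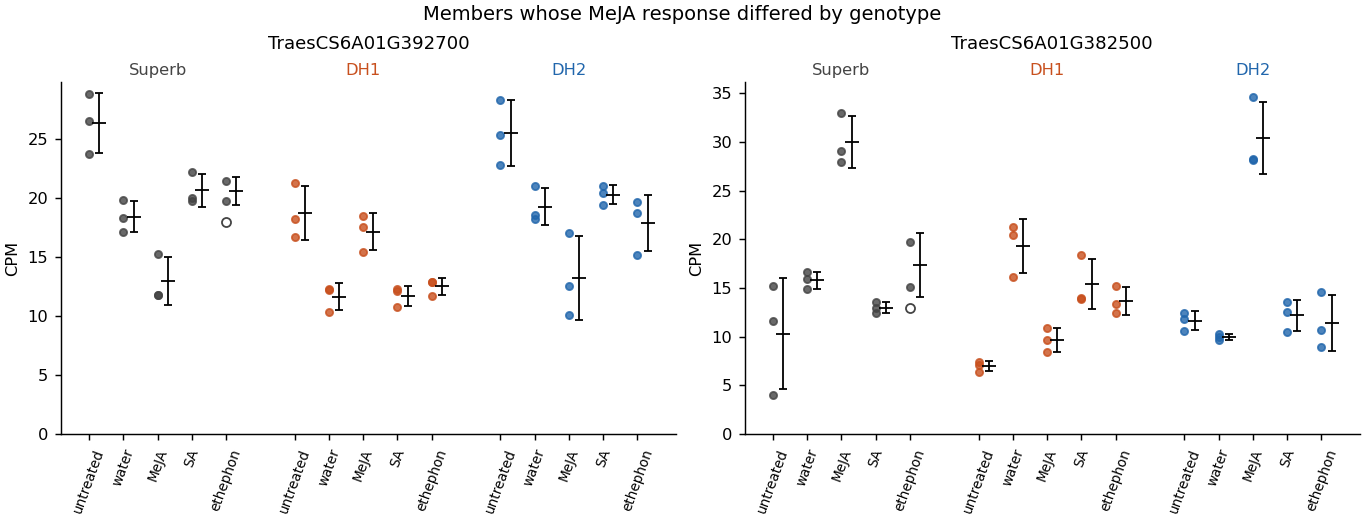
CPM (y axis) of the 2 members whose MeJA response differed by genotype, in each library (points), by condition and genotype (x axis), with the mean and SD of 3 libraries beside them (2 for Superb ethephon, whose open point is the library left out). TraesCS6A01G382500 falls from water to MeJA in DH1 and rises in Superb and DH2, and TraesCS6A01G392700 does the opposite.

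The members present in some genotypes only were also read for MeJA. Of the 20 expressed in DH1 only, 3 fell and 0 rose after MeJA in DH1, where 11.1% of all tested genes fell and 16.1% rose. The 3 were TraesCS6A01G384400, TraesCS6A01G411800 and TraesCS6B01G463700. Of the 12 near 0 in DH1, 1 rose and 3 fell in Superb, where 12.2% of all tested genes rose and 9.3% fell. In DH2, 1 of the 12 rose and 4 fell, where 14.1% of all tested genes rose and 9.03% fell. These sets are too small to read a difference from.

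SA and ethephon gave no call among the members in the edgeR test. Against water, SA called 0 members in each genotype, beside 0.0218%, 0.109% and 0.0529% of all tested genes in Superb, DH1 and DH2. Over the 3 genotypes 85 member tests had an unadjusted p under 0.05, and DESeq2 called 0. Ethephon called 0 members in each genotype, beside 0%, 0.00156% and 0%, with 101 member tests at an unadjusted p under 0.05 and 1 called by DESeq2. Superb ethephon had 2 libraries in this comparison. A p that misses the threshold does not show that these treatments left the members as they were.

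Water at 8 h differed from untreated spikelets at 0 h, a comparison in which time and spray cannot be told apart. It called 191 members in Superb, 178 in DH1 and 205 in DH2, beside 27.1%, 25.4% and 26.5% of all tested genes. In all 3 genotypes 41 members rose, beside 7.96%, and 61 fell, beside 8.26%. At least 1 genotype gave a call for 302 members, or 40.3%, beside 38.7% of all tested genes, and 1 was called in opposite directions, beside 0.0249%. This was TraesCS6B01G431400, at -0.38 on the log2 scale in Superb (edgeR adjusted p = 0.0287) and 0.37 in DH1 (adjusted p = 0.0377), and at -0.21 in DH2 (adjusted p = 0.247).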

How the data were processed

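RNA-seq was made from spikelet RNA with the TruSeq RNA v2 kit on an Illumina HiSeq instrument, per the labels' protocols. The authors deposited whole-number read counts per gene, 1 column per library, and 0 columns were left unused. STAR 2.5.3a and DESeq2 are named, without roles, per the submitters' processing notes. How reads were counted, and with which strand setting, is not given in the sources used here. Every row carried an identifier. Of these, 0 were found in the available gene table of a different wheat assembly, so no sequence is printed.

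Counts were analysed with R 4.3.3 and edgeR 4.0.16 (filterByExpr over the 15 groups, TMM, glmQLFit and glmQLFTest) on 44 libraries, without Superb ethephon replicate 1, with 29 residual degrees of freedom. The filter kept 64232 genes with 99.8% of counts. Calls are Benjamini-Hochberg adjusted p under 0.05 over all tested genes. Standard errors come from each log2 fold change and its F value. CPM uses TMM factors. Genotype contrasts average the 5 conditions. DESeq2 1.42.0 and the other alternatives are in the closing section. No replicate pair agreed within sampling noise (chi-square per degree of freedom 2.35 to 21.2 over 45 pairs). Members, comparisons and rules were chosen with earlier results of these data known. Named genes are the 2 highest and 2 lowest called members (mean log2 CPM from 1 upward) per chromosome end for DH1 against Superb and over the ends for the other comparisons. MeJA members were drawn from those called in 1 direction in all 3 genotypes, and MeJA-by-genotype members from the calls of that test. For SA, ethephon and water none were named. Other members named as neighbours, as ends of a bin or run, or as one of a small count were chosen after their values were seen.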

Additional observations from a re-analysis of the deposited data

Results flagged for a closer look

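The MeJA response of TraesCS6A01G382500 differed by genotype at an adjusted p of 0.000139 (edgeR test with 2 degrees of freedom). All 3 DH1 MeJA libraries lay below every DH1 water library, and in Superb and in DH2 all 3 lay above their water libraries. The test used these same libraries, so their separation adds nothing to it. Between DH1 and Superb alone the difference in response did not pass (edgeR adjusted p = 0.0654). The MeJA response of TraesCS6A01G392700 differed by genotype at an adjusted p of 0.0170 (edgeR), with the opposite directions. That call was lost when DH1 water replicate 1, 2 or 3 or DH1 MeJA replicate 1 or 3 was left out. Members expressed only in DH1 summed to 26.5% of their DH1 mean in Superb ethephon replicate 1, a library kept out of the comparisons.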

How the results depend on the processing

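Over the settings tried, 606 values of the counts were recomputed and 23 moved by over 1.5 times, and of 1488 recomputed values of named genes 1480 kept their direction and their side of the threshold, 8 lost the call and 0 reversed. With untreated libraries only, the calls fell to 129 for DH1 against Superb, 24 for DH2 against Superb and 168 for DH1 against DH2. Over all tested genes 1.32%, 1.3% and 2.66% were called there. With water libraries only they fell to 130, 17 and 188, beside 1.4%, 1.64% and 5.14%. Fewer libraries were compared in both. With an absolute log2 fold change of at least 1, the genotype calls were 136, 18 and 154, beside 1.88%, 2.14% and 4.27% of all tested genes. The MeJA calls were then 65 in Superb, 77 in DH1 and 65 in DH2, or 8.67%, 10.3% and 8.67% of the members. Over all tested genes these shares were 11.4%, 14.0% and 11.6%. At the same limit, the water calls shared by the 3 genotypes were 50 in place of 102. DESeq2 gave 1 ethephon call. Leaving out each library in turn gave 267 to 312 members for DH1 against Superb, 72 to 91 for DH2 against Superb and 363 to 397 for DH1 against DH2. MeJA calls ranged from 90 to 143 in Superb, 108 to 174 in DH1, where the lowest count came without DH1 MeJA replicate 2, and 93 to 164 in DH2. The MeJA-by-genotype calls ranged from 1 to 2, SA calls from 0 to 1 (1 without DH2 SA replicate 1), ethephon calls from 0 to 5 (5 without DH1 ethephon replicate 2 and 2 without DH1 ethephon replicate 3), and the water calls shared by the 3 genotypes from 89 to 108. The causes were not tested.

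With all 45 libraries DH1 against Superb called 282 members, and the fitted log2 fold changes of TraesCS6A01G408200, TraesCS6A01G384500, TraesCS6B01G437400 and TraesCS6B01G470700 fell to 8.25, 8.55, 8.36 and 7.26, from 9.83, 9.62, 9.76 and 8.55. The level rule at 10% in place of 5% gave 14 members near 0 in DH1 and 25 expressed only in DH1, and at 0.5 CPM 13 and 22. With no filter on low counts DH1 against Superb called 318. Leaving out both Superb ethephon replicate 1 and DH1 ethephon replicate 1 is among the fits that leave out 1 library. Leaving out 1 library moved the fitted log2 fold change of TraesCS6D01G392600 to between -3.49 and -5.44 in Superb and between -4.01 and -7.44 in DH2, and to -3.27 in DH1, and that of TraesCS6A01G374400 to -4.39 in Superb and -4.88 in DH1. TraesCS6A01G408200 moved to 10.65 without Superb untreated replicate 2.

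The labels do not say that a replicate number marks shared plants or a batch, so the main fit does not pair samples by it. Most same-numbered pairs within a condition did correlate above 0.1 in their deviations. Within a condition, 13 of 14 pairs of DH2 and Superb were above 0.1 (-0.0644 to 0.686), 12 of 15 of DH1 and DH2 and 9 of 14 of DH1 and Superb. Of MeJA and water pairs, 2 of 3 were above 0.1 in DH1, 2 of 3 in DH2 and 1 of 3 in Superb (lowest -0.243). With the replicate number as a replicate block, DH1 against Superb called 305 members, DH2 against Superb 86 and the MeJA-by-genotype test 2. With a replicate block within condition these were 330, 110 and 2, against 294, 82 and 2 in the main fit without a block. Depth limits the members near 0, where 3 counts over the libraries of a genotype correspond to 0.0162 to 0.0199 CPM.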
